A study of Antheraea pernyi with 6 samples.

Results

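Genes that make, break down or answer ecdysone and juvenile hormone were described, together with nuclear receptors, in adult antennae of the Chinese oak silkmoth Antheraea pernyi. A gene model was taken as a member when the best-hit description in the deposited table contained ecdys, juvenile hormone, hormone receptor, nuclear receptor, Kruppel homolog, methoprene or broad-complex. Esterases, hormone-binding and UDP proteins, diuretic and diapause hormone genes and P450 entries were left out. This gave 68 of 16458 gene models. The groups were 3 libraries labelled male and 3 labelled female, all from antennae of adults. No strain, treatment or age in days is given in the labels, and nothing says whether libraries of a label came from separate animals, so p-values cover no more than library-to-library spread, which may be technical. Values are FPKM, fragments scaled to gene model length and library size, so levels of different genes can be compared per length.

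Ecdysone is a steroid hormone whose active form binds the ecdysone receptor, a nuclear receptor that works as a pair with ultraspiracle. The pair switches on early response genes such as E75 and broad, and these act on later receptors such as HR3 and FTZ-F1, a cascade best known from molting and metamorphosis. Juvenile hormone, a sesquiterpenoid, is finished in the corpora allata by a methyltransferase and is broken down by an esterase and an epoxide hydrolase. In adult insects both hormones are known for roles in reproduction, and in some moths they change how the antenna responds to pheromone.

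Libraries held 9392242 to 9606755 reads under the male label and 10851262 to 11180175 under the female label, read back from the spacing of FPKM values. Over 11590 genes, log2(FPKM + 1) correlated at 0.9844 to 0.986 (Pearson) for libraries of the same label and at 0.9502 to 0.952 for libraries of different labels. Antennal markers were present in all 6 libraries. Of 15 olfactory marker genes, all tested, 8 passed as higher in male-labelled libraries and 4 as lower, with a median log2 fold change of 0.37. On the median-of-ratios scale 5 were higher and 5 lower, so these markers did not share 1 direction. The main pheromone-binding protein 1 model (GWHGABGR012196) stood at 1179.0 to 1359.9 FPKM in male-labelled and 90138.7 to 94059.1 FPKM in female-labelled libraries, although this family is often male-biased in moths. Olfactory receptor 1 (GWHGABGR000138) stood at 0 to 0.528 FPKM in male-labelled and 1105 to 1174 FPKM in female-labelled libraries. A vitellogenin model (GWHGABGR020830), of a yolk protein family that moth females make, had 29 reads in male-labelled and 0 in female-labelled libraries. Whether the labels were exchanged and whether the sexes differ in this way cannot be told apart here, so every direction below is one between labels. Summed FPKM of other cell types' markers was 22 to 24.5 in male-labelled and 12.5 to 14.7 in female-labelled libraries for 6 hemocyte genes, and 88.7 to 94.8 in male-labelled and 65.2 to 71.5 in female-labelled libraries for 6 glial genes. It was 1303.7 to 1364.8 in male-labelled and 1209.8 to 1263.5 in female-labelled libraries for 52 fat body genes, most of them microvitellogenins, and 243 to 248 in male-labelled and 217 to 231 in female-labelled libraries for 27 muscle genes. Of those tested, 3 of 4 glial, 2 of 3 hemocyte, 16 of 32 fat body and 2 of 14 muscle genes passed as higher in male-labelled libraries, and 2 fat body genes and 1 muscle gene as lower, where 27.8% of all tested genes passed as higher and 9.03% as lower. After median-of-ratios rescaling 2 glial, 2 hemocyte, 11 fat body and 1 muscle gene passed as higher and 2 fat body and 2 muscle genes as lower, where the shares of all tested genes were 14.3% and 17.6%. Vitellogenin-2-like (GWHGABGR013035) and 1 prophenoloxidase model (GWHGABGR013353) each had reads in a single library. The median log2 fold change, male-labelled minus female-labelled, was 0.51 for the tested glial, 0.69 for hemocyte, 0.4 for fat body and 0.01 for muscle genes, against 0.23 for all tested genes. The part of glial, hemocyte and fat body genes in the results below was not tested. In bulk antennae, fewer cells of a type and less RNA per cell cannot be told apart.

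In male-labelled libraries 4 models named by best hit for juvenile hormone acid methyltransferase were higher than in female-labelled ones, by 0.75 to 1.53 on the log2 scale. The most abundant model named for juvenile hormone epoxide hydrolase was lower. A less abundant model of that name passed as higher, though not after median-of-ratios rescaling. Broad, FTZ-F1 and ecdysteroid-phosphate phosphatase were also higher, while the main models of the ecdysone receptor and E75 did not pass on the deposited scale. Of the 68 models, 42 had a mean of at least 0.5 FPKM and were tested with limma on log2(FPKM + 1), with Benjamini-Hochberg adjustment over all 11590 tested genes at 0.05. Of these 42 models, 16 (38.1%) passed with higher values in male-labelled libraries and 3 (7.14%) with lower values. Over all tested genes 27.8% passed as higher, 9.03% as lower and 36.9% in either direction. The median log2 fold change, male-labelled minus female-labelled, was 0.36 for the 42 models and 0.23 for all tested genes. On the deposited scale 70.5% of all tested genes had a positive log2 fold change, and the cause of this shared shift was not tested. After median-of-ratios rescaling, which brought the median of all tested genes to 0.02, 9 models passed as higher and 5 as lower, against 14.3% and 17.6% of all tested genes and 31.9% in either direction. The values did not overlap between labels for 25 of the 42 models (59.5%), against 50.1% of all tested genes. The member counts thus sit near the background, and the results below are those of single genes.

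**Figure D1:**
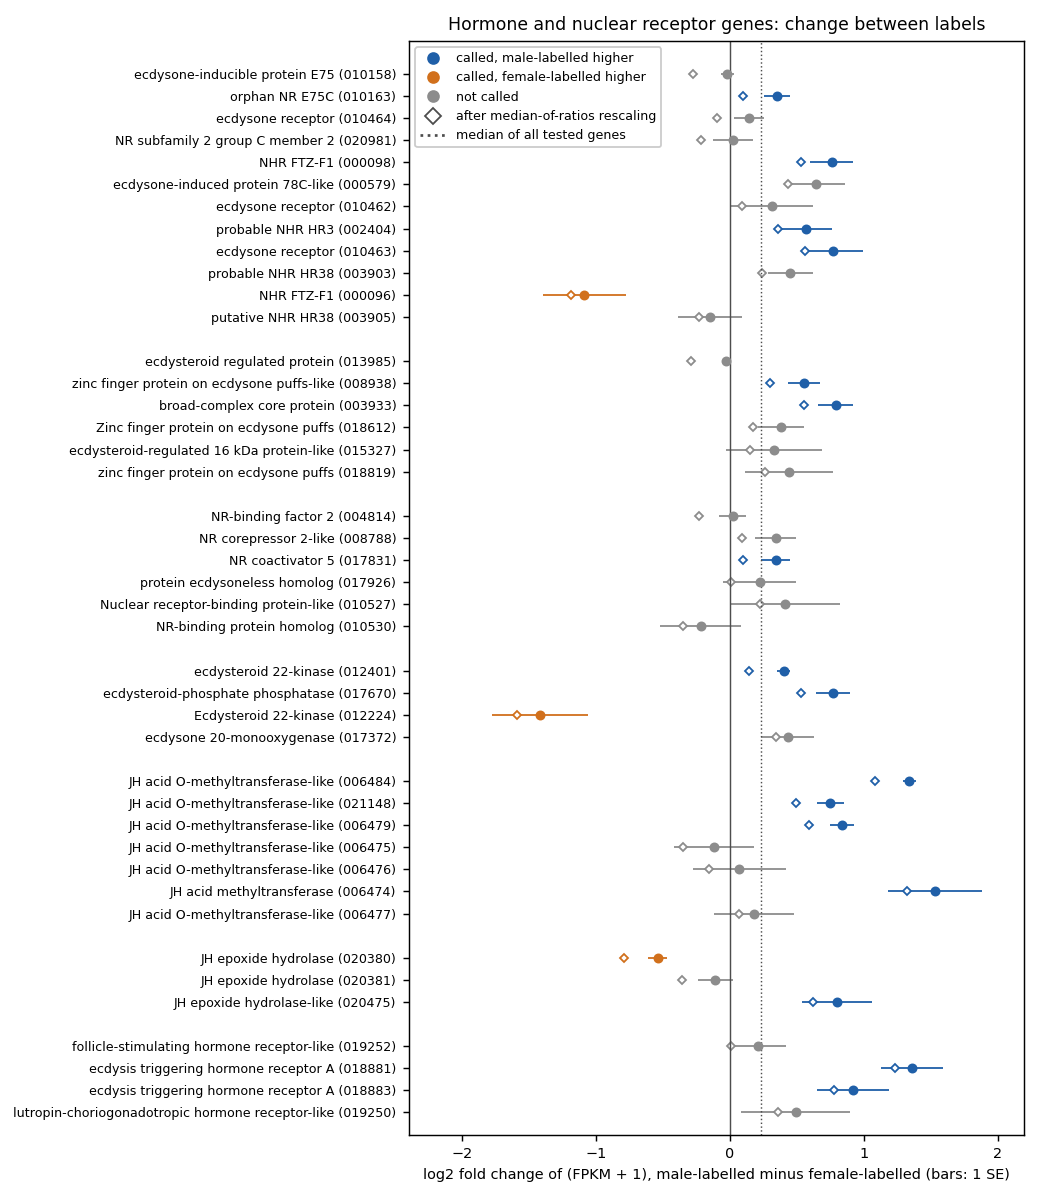
Log2 fold change of (FPKM + 1), male-labelled minus female-labelled, for the 42 tested models, grouped by role and labelled with the last digits of their identifiers. Filled points are the deposited scale with bars of 1 SE, open diamonds the values after median-of-ratios rescaling, and the dotted line the median of all tested genes at 0.23. Among the methyltransferases 4 models lie clear of that line on the right, and 3 models lie on the left of 0 and passed the test.

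In all 19 models passed, and 9 of them kept their call under every alternative that tested them. Those 9 were 4 methyltransferase models, 1 epoxide hydrolase, 1 ecdysteroid 22-kinase, the ecdysteroid-phosphate phosphatase, broad-complex and 1 ecdysis triggering hormone receptor. Leaving out single libraries ended the call of 8 others. Without female replicate 3 the number of higher models was 10. The number of lower models was 1 without male replicate 1 and 1 without female replicate 2.

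Juvenile hormone acid methyltransferase adds a methyl group to juvenile hormone acid or farnesoic acid, and the deposited table holds 8 models named for it. All 8 carry the same symbol, BGIBMGA010391, and 6 of them have identifiers between GWHGABGR006474 and GWHGABGR006484. Near-identical copies could share reads in the authors' counting, and enzymatic identity is known only from the best hit. Of the 7 models tested, 4 (57.1%) were higher in male-labelled libraries and 0 were lower, and the same counts held with rescaled values. Over all tested genes 27.8% were higher and 9.03% lower, and 14.3% and 17.6% with rescaled values. The median log2 fold change of the 7 was 0.75, against 0.23 for all tested genes.

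The most abundant methyltransferase-like model, GWHGABGR006484, stood at 360.0, 343 and 344 FPKM in male-labelled libraries 1, 2 and 3, against 136, 147 and 130.2 FPKM in female-labelled libraries 1, 2 and 3. Every male-labelled value lay far above every female-labelled one. It averaged 349 ± 9.66 FPKM in male-labelled and 138 ± 8.53 FPKM in female-labelled libraries (SD, n = 3 each), with a log2 fold change of 1.34 (SE 0.05 and limma adjusted p = 2.8e-07). After median-of-ratios rescaling its log2 fold change was 1.08.

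A second model, GWHGABGR021148, whose identifier lies far from the others, stood at 119, 96.0 and 125 FPKM in male-labelled libraries, against 66.6, 64.0 and 69.3 FPKM in female-labelled ones. The groups did not overlap, and male replicate 2 was the lowest of its label (log2 fold change 0.75, SE 0.10 and limma adjusted p = 0.000462). GWHGABGR006479 stood at 68.5, 58.8 and 64.2 FPKM in male-labelled libraries, against 31.8, 37.4 and 36.6 FPKM in female-labelled ones (log2 fold change 0.84, SE 0.09 and limma adjusted p = 0.000144). These 3 models held 94.6% of the summed methyltransferase FPKM in male-labelled and 91.0% in female-labelled libraries.

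The less abundant models differed among themselves. GWHGABGR006474, with a best hit in the saturniid moth Samia ricini, stood at 14.7, 4.96 and 7.96 FPKM in male-labelled libraries, against 1.59, 2.02 and 3.46 FPKM in female-labelled ones (log2 fold change 1.53, SE 0.35 and limma adjusted p = 0.0104). Its male-labelled values spread widely, with replicate 1 the highest, and still lay above all female-labelled ones. Its neighbours in identifier, GWHGABGR006475 at 5.91 to 12.7 FPKM in male-labelled and 7.29 to 13.4 FPKM in female-labelled libraries and GWHGABGR006476 at 7.53 to 11.5 FPKM in male-labelled and 5.24 to 16.6 FPKM in female-labelled libraries, overlapped between labels and did not pass. The 95% interval of their log2 fold change ran from -0.8 to 0.56 for GWHGABGR006475 and from -0.73 to 0.87 for GWHGABGR006476, so changes of the size seen in GWHGABGR021148 lie outside the first interval and inside the second. GWHGABGR006477 stayed under 1.6 FPKM in every library and did not pass. GWHGABGR006529 was under the level tested, with 21 reads in male-labelled and 3 in female-labelled libraries, or 8.14 times as many per library total (exact 95% interval 2.43 to 42.6, counting error only).

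Juvenile hormone epoxide hydrolase opens the epoxide ring of juvenile hormone on the way to its diol. The most abundant of 6 models, GWHGABGR020380, stood at 38.0, 36.6 and 38.97 FPKM in male-labelled libraries, against 56.5, 56.4 and 53.6 FPKM in female-labelled ones. It was lower in every male-labelled library than in any female-labelled one (log2 fold change -0.54, SE 0.07 and limma adjusted p = 0.000323), and its log2 fold change was -0.79 after median-of-ratios rescaling. The model next to it in identifier, GWHGABGR020381, stood at 16.4 to 23.5 FPKM in male-labelled and 19.9 to 22.1 FPKM in female-labelled libraries and did not pass (log2 fold change -0.11, 95% interval -0.41 to 0.19). GWHGABGR020475 stood at 3.28, 3.09 and 6.46 FPKM in male-labelled libraries, against 1.89, 2.12 and 1.72 FPKM in female-labelled ones. It is named here after its values were seen. It passed as higher (log2 fold change 0.80, limma adjusted p = 0.0381), but not after median-of-ratios rescaling (adjusted p = 0.0978) nor when male replicate 3 or any 1 female replicate was left out (adjusted p = 0.0704 to 0.1). The other 3 models had at most 12 reads each over all 6 libraries. Next in identifier to the first 2 is GWHGABGR020379, a hypothetical protein by description that carries the same symbol, JHEH, and which the table also places in hormone biosynthesis. It averaged 43.2 FPKM in male-labelled and 47.0 FPKM in female-labelled libraries, without overlap, and did not pass on the deposited scale. After median-of-ratios rescaling it passed as lower (log2 fold change -0.37, limma adjusted p = 0.0063).

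**Figure D2:**
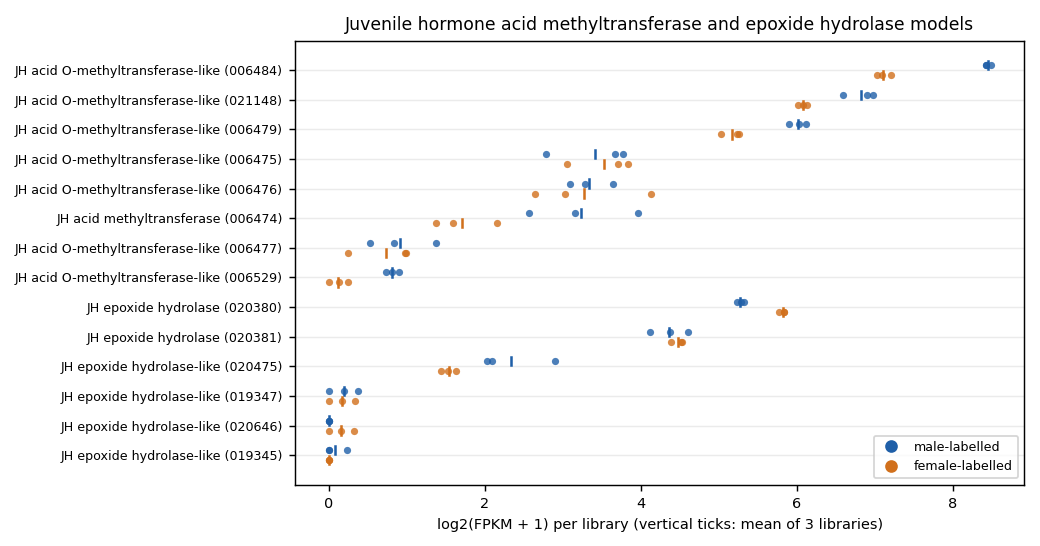
Log2(FPKM + 1) of the 8 methyltransferase and 6 epoxide hydrolase models in each library, with male-labelled libraries above female-labelled ones in each row and vertical ticks at the mean of 3 libraries. The 3 most abundant methyltransferase models are separated by label toward higher male-labelled values, and the most abundant epoxide hydrolase toward lower ones.

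Around these enzymes stood other genes of the juvenile hormone route that the descriptions name. Of 17 tested genes named for mevalonate, farnesyl or geranyl steps, which supply the carbon skeleton and also serve protein prenylation, 7 were higher in male-labelled libraries and 1 was lower, with 4 and 3 after median-of-ratios rescaling. The shares of all tested genes were 27.8% and 9.03%, and 14.3% and 17.6% after that rescaling. Isopentenyl-diphosphate Delta-isomerase 1 (GWHGABGR015292) averaged 37.7 ± 6.52 FPKM in male-labelled and 20.3 ± 4.25 FPKM in female-labelled libraries (SD, n = 3 each; log2 fold change 0.86, limma adjusted p = 0.0044). Diphosphomevalonate decarboxylase (GWHGABGR009267) averaged 9.36 ± 1.05 FPKM in male-labelled and 4.39 ± 0.365 FPKM in female-labelled libraries (log2 fold change 0.94, limma adjusted p = 0.00145). Both genes are among the 7 higher ones and lie outside the naming rule, and the 1 lower gene is not named here. A gene named farnesoic acid O-methyltransferase (GWHGABGR008799) averaged 4137 ± 99.6 FPKM in male-labelled and 4158 ± 32.7 FPKM in female-labelled libraries and did not pass on the deposited scale (log2 fold change -0.01). It passed as lower after median-of-ratios rescaling (log2 fold change -0.27, adjusted p = 0.000118). Of 6 juvenile hormone esterase models, 1 was tested, GWHGABGR014406. It averaged 19.96 ± 2.6 FPKM in male-labelled and 32.4 ± 2.72 FPKM in female-labelled libraries and was lower (log2 fold change -0.68, limma adjusted p = 0.00224). The epoxide hydrolase GWHGABGR020380 was also lower, while GWHGABGR020381 did not pass and GWHGABGR020475 passed as higher on the deposited scale. Krueppel homolog 1-like (GWHGABGR004054), the zinc finger factor induced by juvenile hormone, is spelled with an e and so is no member. It averaged 81.6 ± 7.26 FPKM in male-labelled and 101 ± 7.79 FPKM in female-labelled libraries (SD, n = 3 each) and passed as lower (log2 fold change -0.30, limma adjusted p = 0.0203). Its call was lost without male replicate 1, without male replicate 3 and without female replicate 2 (adjusted p = 0.0536 to 0.0682). No description in the table contained methoprene, the word that names the juvenile hormone receptor.

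Among the enzymes that change ecdysteroids, ecdysteroid 22-kinase attaches a phosphate to give a stored form, and ecdysteroid-phosphate phosphatase releases the free hormone again. The main 22-kinase model, GWHGABGR012401, stood at 185, 177 and 189 FPKM in male-labelled libraries, against 135, 142 and 139 FPKM in female-labelled ones. Its groups did not overlap (log2 fold change 0.40, SE 0.05 and limma adjusted p = 0.000266), and after median-of-ratios rescaling its log2 fold change was 0.14 (adjusted p = 0.0436). The phosphatase, GWHGABGR017670, stood at 19.1, 17.96 and 18.5 FPKM in male-labelled libraries, against 10.6, 12.3 and 8.78 FPKM in female-labelled ones (log2 fold change 0.77, SE 0.13 and limma adjusted p = 0.00239). The male-labelled values lay close together and above all female-labelled ones.

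A shorter 22-kinase model, GWHGABGR012224, named here after its values were seen, went the other way. It stood at 0.496, 0.728 and 2.47 FPKM in male-labelled libraries, against 2.96, 6.25 and 4.94 FPKM in female-labelled ones (log2 fold change -1.42, SE 0.36 and limma adjusted p = 0.015). These values rest on 15 reads in male-labelled and 67 in female-labelled libraries, and the adjusted p was 0.05004 without male replicate 1 and 0.05538 without female replicate 2. Another 22-kinase model, GWHGABGR012288, had 20 reads in male-labelled and 15 in female-labelled libraries and was not tested. Ecdysone 20-monooxygenase (GWHGABGR017372), which makes the active hormone, stood at 0.69 to 0.803 FPKM in male-labelled and 0.215 to 0.328 FPKM in female-labelled libraries and did not pass (adjusted p = 0.122). Its groups did not overlap, on 35 reads in male-labelled and 16 in female-labelled libraries. Over the settings run its limma adjusted p ranged from 0.0115 to 0.457, so its call depended on the setting. The 9 models named putative ecdysone oxidase, an enzyme that inactivates ecdysone, never exceeded 1.07 FPKM in a library, and none was tested. Together they had 44 reads in male-labelled and 18 in female-labelled libraries. The kinase was therefore the abundant enzyme of this group in every library, and the oxidases were near the detection limit.

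Of the P450 enzymes of ecdysteroid metabolism, which the description rule leaves out, cytochrome P450 18a1-like (GWHGABGR010114), whose Drosophila counterpart inactivates ecdysteroids, was the most abundant. It averaged 105 ± 4.32 FPKM in male-labelled and 75.3 ± 1.27 FPKM in female-labelled libraries (SD, n = 3 each; log2 fold change 0.48, limma adjusted p = 0.000225). CYP315A1 (GWHGABGR011222), a late enzyme of ecdysone synthesis, averaged 1.41 ± 0.126 FPKM in male-labelled and 1.08 ± 0.47 FPKM in female-labelled libraries and did not pass. CYP302A1 (GWHGABGR008245), which acts just before it, had 1 read in male-labelled and 8 in female-labelled libraries. A further P450 model of the pathway insect hormone biosynthesis, GWHGABGR010113, is described only as cytochrome P450 (symbol CG6578). It averaged 23.9 ± 2.89 FPKM in male-labelled and 26.0 ± 2.83 FPKM in female-labelled libraries and did not pass on the deposited scale. After median-of-ratios rescaling it passed as lower (log2 fold change -0.37, limma adjusted p = 0.0445). Of 37 genes that the table assigns to the pathway insect hormone biosynthesis, 15 are members. Of the other 22, 19 were tested, and 6 were higher in male-labelled libraries and 5 lower, with 3 and 9 after median-of-ratios rescaling. Among all tested genes 27.8% were higher and 9.03% lower, with 14.3% and 17.6% after rescaling. The 5 pathway genes lower on the deposited scale were aldehyde or retinal dehydrogenases, such as GWHGABGR014228 with 2.2 ± 0.116 FPKM in male-labelled and 24.8 ± 1.33 FPKM in female-labelled libraries.

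**Figure D3:**
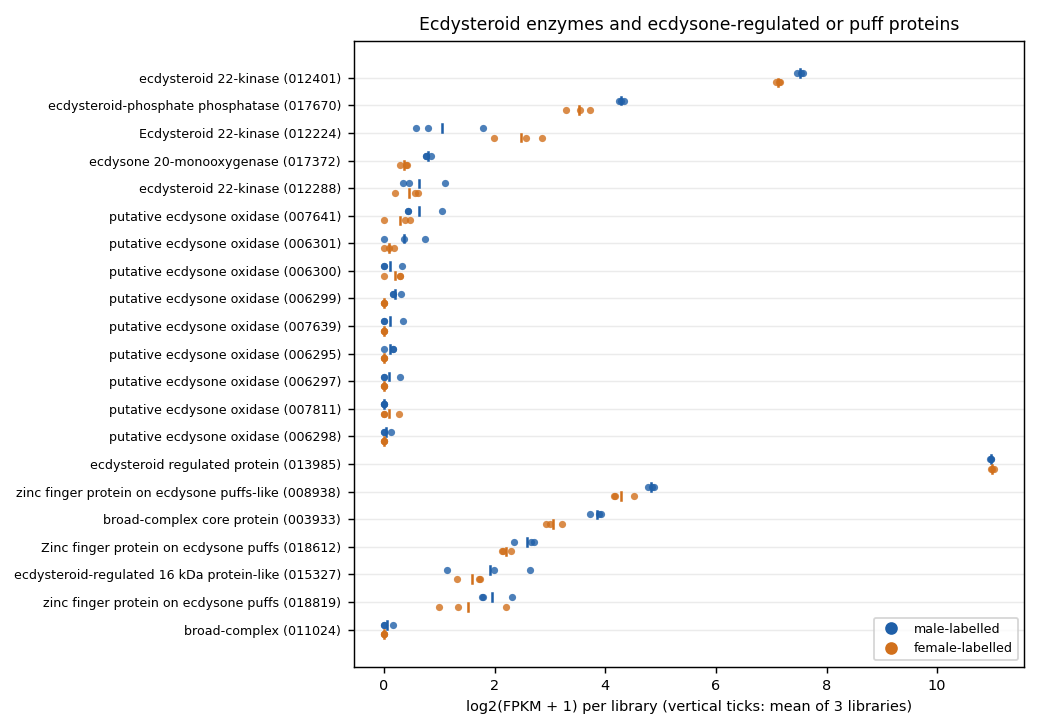
Log2(FPKM + 1) per library of the 14 models of ecdysteroid metabolism and the 7 ecdysone-regulated or puff proteins, male-labelled libraries above female-labelled ones in each row, with ticks at the mean of 3 libraries. The main 22-kinase and the phosphatase lie to the right in male-labelled libraries, the 9 oxidase models lie near 0, and the ecdysteroid regulated protein tops the plot in both labels.

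Among nuclear receptors, 20 models were found and 12 were tested, of which 4 (33.3%) were higher in male-labelled libraries and 1 (8.33%) was lower. The shares of all tested genes were 27.8% and 9.03%, so these counts sit near the background. After median-of-ratios rescaling 1 was higher and 2 were lower, against 14.3% and 17.6% of all tested genes. The ecdysone receptor appeared as 3 models with consecutive identifiers. The longest of them, GWHGABGR010464, has a recovered coding length of 1305 bases and its best hit is the ecdysone receptor isoform B1 of Antheraea pernyi itself. It stood at 12.7, 12.7 and 13.4 FPKM in male-labelled libraries, against 10.9, 12.2 and 11.8 FPKM in female-labelled ones. It did not pass (log2 fold change 0.14, 95% interval -0.11 to 0.39), and its log2 fold change was -0.10 after median-of-ratios rescaling.

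The model before it, GWHGABGR010463, of 573 bases and with the same best hit, stood at 7.43, 5.45 and 6.46 FPKM in male-labelled libraries, against 3.01, 4.68 and 2.57 FPKM in female-labelled ones. It passed on the deposited scale (log2 fold change 0.77, SE 0.22 and limma adjusted p = 0.023). Median-of-ratios rescaling ended that call (adjusted p = 0.0783), as did leaving out male replicate 1 or 3 or female replicate 1 or 3 (adjusted p = 0.0603 to 0.0766). The shortest, GWHGABGR010462, stood at 3.5 to 8.5 FPKM in male-labelled and 3.01 to 5.81 FPKM in female-labelled libraries, and its groups overlapped. Per length, the longest model was higher than the other 2 in all 6 libraries, and whether the 3 belong to 1 gene is not given in the table.

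Ultraspiracle, the partner of the ecdysone receptor, is no member by description and appeared as 2 models. Ultraspiracle protein 1 (GWHGABGR006904) stood at 14.5, 17.2 and 23.9 FPKM in male-labelled libraries, against 9.9, 9.4 and 12.04 FPKM in female-labelled ones. It passed (log2 fold change 0.75, SE 0.18 and limma adjusted p = 0.013), but not after median-of-ratios rescaling (adjusted p = 0.0652). The other model, GWHGABGR006905, stood at 11.4 to 16.2 FPKM in male-labelled and 6.67 to 11.7 FPKM in female-labelled libraries and did not pass (adjusted p = 0.0596).

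E75, a haem-binding receptor induced early by ecdysone, was the most abundant nuclear receptor among the members. Its main model, GWHGABGR010158, stood at 133, 134 and 133 FPKM in male-labelled libraries, against 133, 132 and 139.5 FPKM in female-labelled ones. The groups overlapped on the deposited scale (log2 fold change -0.02, 95% interval -0.12 to 0.09). After median-of-ratios rescaling it passed as lower (log2 fold change -0.28, adjusted p = 0.00262). A partial E75C model, GWHGABGR010163, stood at 38.5, 39.7 and 35.8 FPKM in male-labelled libraries, against 26.1, 33.2 and 29.5 FPKM in female-labelled ones. It passed on the deposited scale (log2 fold change 0.35, SE 0.10 and limma adjusted p = 0.0248) but not after median-of-ratios rescaling (adjusted p = 0.482). Its call was also lost without male replicate 1 or 2 or female replicate 1 or 3 (adjusted p = 0.0615 to 0.0724). Another E75 model, GWHGABGR010160, had 5 reads over all libraries.

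Receptors further down the cascade were near 10 FPKM or lower. FTZ-F1, which in Drosophila prepares tissues for a later response to the hormone, had a main model, GWHGABGR000098, at 10.4, 11.5 and 10.6 FPKM in male-labelled libraries, against 7.04, 4.81 and 6.24 FPKM in female-labelled ones. Its groups did not overlap (log2 fold change 0.76, SE 0.16 and limma adjusted p = 0.00584), and its call was kept after median-of-ratios rescaling (adjusted p = 0.0332) and lost after quantile normalization. A short FTZ-F1 model of 213 bases, GWHGABGR000096, was the member that passed as lower here, on 2 reads in male-labelled and 12 in female-labelled libraries. It is named after its values were seen, and its call was lost without male replicate 1 or 2 or female replicate 1 or 2 (adjusted p = 0.064 to 0.0803).

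HR3 (GWHGABGR002404), which in flies represses and activates genes between the ecdysone pulses, stood at 5.62, 7.92 and 5.16 FPKM in male-labelled libraries, against 3.25, 4.36 and 3.85 FPKM in female-labelled ones. It passed narrowly (log2 fold change 0.57, SE 0.19 and limma adjusted p = 0.0487). That call was lost when any 1 library other than male replicate 3 was left out (adjusted p = 0.0622 to 0.146), and after median-of-ratios rescaling (adjusted p = 0.204). E78 (GWHGABGR000579) stood at 8.01, 8.93 and 5.06 FPKM in male-labelled libraries, against 3.44, 4.34 and 4.99 FPKM in female-labelled ones, and missed the threshold (adjusted p = 0.0509). HR38 (GWHGABGR003903), a receptor induced by neuronal activity in insects, stood at 5.42, 5.19 and 6.34 FPKM in male-labelled libraries, against 3.31, 4.46 and 3.81 FPKM in female-labelled ones, and did not pass either (log2 fold change 0.45, 95% interval 0.07 to 0.84 before adjustment, adjusted p = 0.0648). The HR78 counterpart, nuclear receptor subfamily 2 group C member 2 (GWHGABGR020981), stood at 11.0 to 13.9 FPKM in male-labelled and 10.2 to 14.2 FPKM in female-labelled libraries and did not pass.

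Other receptors were close to the detection limit. HR4 (GWHGABGR014854), a repressor of the cascade, had 26 reads in male-labelled and 0 in female-labelled libraries. With the female-labelled sum set to a floor of 3 reads, that is 10.1 times as many per library total. This value depends on the floor and does not take the counting error of the 26 reads into account. HR4 was under the level tested. HR39 (GWHGABGR014803) had 5 and FTZ-F1 beta-like (GWHGABGR014805), which carries the same symbol, 27 reads in male-labelled libraries, against 10 and 13 reads in female-labelled ones. HR96, the estrogen-related receptor ERR2, a COUP-type receptor (GWHGABGR016377) and the photoreceptor-specific nuclear receptor had at most 17 reads each over all libraries. Of 4 tested genes with receptor-like names outside the rule's words, 1 was higher, steroid receptor RNA activator 1 (GWHGABGR014436), which is no receptor itself. Median-of-ratios rescaling ended its call (log2 fold change 0.10, adjusted p = 0.382), as did quantile normalization and voom. Hepatocyte nuclear factor 4-gamma (GWHGABGR012142), a nuclear receptor, averaged 15.4 ± 2.26 FPKM in male-labelled and 11.4 ± 2.47 FPKM in female-labelled libraries without passing (adjusted p = 0.0913).

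**Figure D4:**
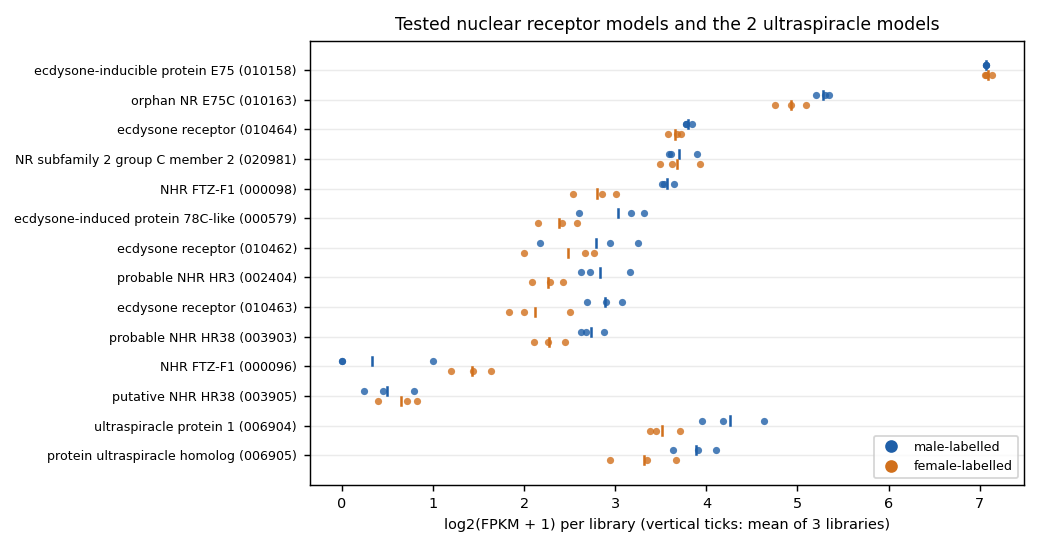
Log2(FPKM + 1) per library of the 12 tested nuclear receptor models and 2 ultraspiracle models, male-labelled libraries above female-labelled ones in each row, with ticks at the mean of 3 libraries. E75 is the highest with overlapping labels, and the main FTZ-F1 model and ultraspiracle protein 1 are shifted toward the male label.

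Of the genes that ecdysone regulates, the one named ecdysteroid regulated protein (GWHGABGR013985, symbol ESR16) had the highest level of all 68 models. It stood at 2010.0, 2022 and 1975 FPKM in male-labelled libraries, against 2085, 2003 and 2029 FPKM in female-labelled ones. The groups overlapped and it did not pass (log2 fold change -0.03, 95% interval -0.09 to 0.03). After median-of-ratios rescaling it passed as lower (log2 fold change -0.29, adjusted p = 8.39e-05). ESR16 proteins are related to the NPC2 family of sterol and lipid carriers.

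Broad-complex, a zinc finger factor of the early response that marks the pupal program in moths, had a main model, GWHGABGR003933, at 13.8, 14.1 and 12.2 FPKM in male-labelled libraries, against 8.34, 7.01 and 6.64 FPKM in female-labelled ones. Its groups did not overlap (log2 fold change 0.79, SE 0.13 and limma adjusted p = 0.00216), and its call held under all 14 alternatives. E93, which in Drosophila directs the adult program, is represented by 2 models named after its honeybee counterpart, mushroom body large-type Kenyon cell-specific protein 1. Both passed as higher in male-labelled libraries, GWHGABGR018584 not after quantile normalization. GWHGABGR018585 averaged 11.9 ± 2.05 FPKM in male-labelled and 5.09 ± 0.879 FPKM in female-labelled libraries (SD, n = 3 each; log2 fold change 1.08, limma adjusted p = 0.00172). GWHGABGR018584 averaged 9.78 ± 0.842 FPKM in male-labelled and 5.85 ± 0.237 FPKM in female-labelled libraries (log2 fold change 0.65, limma adjusted p = 0.00564).

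A zinc finger protein on ecdysone puffs, named for its place on fly polytene chromosomes, had 3 models. GWHGABGR008938 stood at 27.7, 26.4 and 28.4 FPKM in male-labelled libraries, against 17.0, 16.8 and 22.1 FPKM in female-labelled ones, and passed (log2 fold change 0.55, SE 0.12 and limma adjusted p = 0.00731), though not after median-of-ratios rescaling (adjusted p = 0.0915). The other 2, at 2.41 to 5.56 FPKM in male-labelled and 0.996 to 3.91 FPKM in female-labelled libraries, did not pass. A further model of the 16 kDa ecdysteroid-regulated family (GWHGABGR015327) stood at 1.19 to 5.25 FPKM in male-labelled and 1.5 to 2.32 FPKM in female-labelled libraries, with overlap. The second broad-complex model, isoform Z4, had 1 read.

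Of 6 cofactors and binding proteins, all tested, 1 was higher in male-labelled libraries and 0 after median-of-ratios rescaling, against 27.8% and 14.3% of all tested genes. Nuclear receptor coactivator 5 (GWHGABGR017831) stood at 16.0, 17.5 and 15.4 FPKM in male-labelled libraries, against 11.6, 13.6 and 12.9 FPKM in female-labelled ones (log2 fold change 0.34, SE 0.11 and limma adjusted p = 0.0442). Its call was lost when any 1 of the 6 libraries was left out (adjusted p = 0.0543 to 0.126). Nuclear receptor corepressor 2-like (GWHGABGR008788) stood at 26.0, 38.0 and 27.2 FPKM in male-labelled libraries, against 21.0, 24.6 and 25.0 FPKM in female-labelled ones, and did not pass. Nuclear receptor-binding factor 2 (GWHGABGR004814), known in mammals from autophagy, stood at 24.6 to 29.98 FPKM in male-labelled and 25.9 to 28.3 FPKM in female-labelled libraries, with overlap. Ecdysoneless, needed in Drosophila for normal ecdysone levels, stood at 5.43 to 6.67 FPKM in male-labelled and 3.34 to 8.23 FPKM in female-labelled libraries. Both nuclear receptor-binding protein models overlapped between labels too. Among 9 tested genes with coactivator or corepressor in their names outside the rule, 5 were higher and 0 lower, with 2 and 0 after median-of-ratios rescaling. Shares of all tested genes were 27.8% and 9.03%, and 14.3% and 17.6% after rescaling. The 2 higher after rescaling were a REST corepressor (GWHGABGR014171) and corepressor interacting with RBPJ 1 (GWHGABGR010084), neither of which is known mainly for nuclear receptors.

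The rule's words also caught receptors and a signal of peptide and glycoprotein hormones. The ecdysis triggering hormone receptor, a G protein-coupled receptor that starts the molting behavior in larvae and pupae, had 2 models with close identifiers, and both are named here after their values were seen. GWHGABGR018881 stood at 3.27, 2.21 and 2.78 FPKM in male-labelled libraries, against 0.253, 0.799 and 0.36 FPKM in female-labelled ones. Every male-labelled value was above every female-labelled value (log2 fold change 1.36, SE 0.23 and limma adjusted p = 0.00197). GWHGABGR018883 stood at 2.7, 1.98 and 2.01 FPKM in male-labelled libraries, against 1.34, 0.755 and 0.194 FPKM in female-labelled ones. It passed on the deposited scale (log2 fold change 0.92, SE 0.27 and limma adjusted p = 0.0303) but not after median-of-ratios rescaling (adjusted p = 0.0655), nor when any 1 library other than female replicate 1 was left out (adjusted p = 0.0563 to 0.0929). The pair rests on 140 and 30 reads in male-labelled libraries, against 28 and 12 reads in female-labelled ones. The follicle-stimulating hormone receptor-like model GWHGABGR019252, most abundant of this group, stood at 3.12 to 5.37 FPKM in male-labelled and 2.99 to 3.7 FPKM in female-labelled libraries and did not pass. The gonadotropin-releasing hormone receptor model had 15 reads in male-labelled and 16 in female-labelled libraries. Eclosion hormone, the peptide that triggers adult emergence, had 3 reads in male-labelled and 1 in female-labelled libraries.

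Beyond the words of the rule, the members share little in the table. Their best hits come from 16 species, with Manduca sexta the source of 23 and Antheraea pernyi of 8. Identifiers of 36 of the 68 models lie within 10 numbers of another model of the same role, as in the methyltransferases, the oxidases, the ecdysone receptor and E75, though the table does not say whether numbers follow position in the genome. Of the 68 models, 26 had fewer than 30 reads over the 6 libraries, 2 had no read in male-labelled and 10 no read in female-labelled libraries.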

How the data were processed

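Antennal mRNA of 3 male-labelled and 3 female-labelled libraries was prepared with Trizol and a stranded kit, per the labels' protocols. The authors deposited FPKM per gene model with best-hit descriptions. The submitters' processing notes name HISAT2, HTSeq, Trimmomatic and R 3.2.0 without roles, and the genome build is not given in the sources used here. Strand settings and the handling of multiply mapped reads are likewise not given.

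Whole reads were recovered from the FPKM steps within 0.01 read for 16458 of 16458 models, taking the shortest fitting length of at least 90 bases, so reads can be too low by a common factor. Among models with over 30 reads, 92.2% of lengths divide by 3, hence the term coding length. Chi-square per gene between libraries of a label was 3.08 to 3.99, above sampling noise.

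Models with a mean of at least 0.5 FPKM were fitted on the log2(FPKM + 1) scale by limma 3.58.1 (R 4.3.3), using the trend option, label as the only term, 2-sided tests and Benjamini-Hochberg adjustment at 0.05. Fold changes are on the log2(FPKM + 1) scale, which understates changes of low genes. Count models such as voom were run as an alternative only. The limma step was also run on simulated data without a shift shared by all genes, so that run cannot tell how such a shift affects the calls. Figures used Python 3.11.15 and matplotlib 3.10.9. Intervals of read ratios are exact and cover counting error only, with a floor of 3 reads over a label.

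Named genes were called members without overlap whose higher label averaged 5 FPKM or more, the most abundant member of each role, and a fixed list of hormone factors, of which E74 and methoprene-tolerant matched no description. Members, roles and lists were chosen with earlier results of these data known, so no p is adjusted over them and summed levels per role were left untested. The lists also held juvenile hormone-binding and takeout genes, of which 3 of 7 tested were higher in male-labelled libraries and 1 was lower (1 and 2 after median-of-ratios rescaling, against 14.3% and 17.6% of all tested genes, and 27.8% and 9.03% before it), and ecdysone response factors beyond the rule (E93).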

Additional observations from a re-analysis of the deposited data

How the results depend on the processing

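Each result was recomputed under 14 alternatives. The balance of directions depended on the scaling used. Genes called higher and lower in male-labelled libraries numbered 3227 and 1047, against 1656 and 2036 after median-of-ratios rescaling, 1636 and 1688 after quantile normalization and 1887 and 2226 with limma-voom on recovered reads. Among hormone genes, 16 and 3 became 9 and 5, 9 and 3, and 10 and 5 under these settings in the same order. With 1 library left out, higher hormone genes numbered 10 to 13 and lower ones 1 to 3, and all called genes 2566 to 2739 higher and 877 to 954 lower. Same-numbered libraries did not deviate together (correlations of deviations 0.0051, 0.0059 and -0.0038), so the numbers are not taken as pairs. With a replicate block, 13 and 3 hormone genes and 2891 and 954 genes in all were called. Of 26 named and tested genes, 24 kept direction and side of the threshold with that block, and 26 did with a pseudocount of 0.1. Fewer did under the settings that changed the scaling: 15 after median-of-ratios rescaling, 14 after quantile normalization and 16 with limma-voom on recovered reads.

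Signs changed for genes that had not passed. ESR16 moved to 0.09 with quantile normalization (adjusted p = 0.0404), the follicle-stimulating hormone receptor-like model to -0.11 with quantile normalization, and E75 to 0.01 without female replicate 3 (-0.03 to 0.01 over the libraries left out). Nuclear receptor-binding factor 2 moved to -0.23, -0.2 and -0.24 with median-of-ratios, quantile and voom settings, and to -0.04 and -0.01 without male or female replicate 1. The longest ecdysone receptor model moved to -0.1, -0.15 and -0.11 under the same 3 settings. The HR78 counterpart moved to -0.22, -0.28 and -0.24 under them, and to -0.08, -0.01 and -0.08 without male replicate 1, female replicate 1 and female replicate 3, with 0.14 the highest when 1 library was left out. The cause of these shifts was not tested. Read depth limits the 26 models under 30 reads, of which 1, the short FTZ-F1 model, was called.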
